A study of Mus musculus with 6 samples.

Results

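Platelet-derived growth factor (PDGF) genes were examined in bladder cells of newborn mice. The set held the ligands Pdgfa, Pdgfb, Pdgfc and Pdgfd, the receptors Pdgfra and Pdgfrb, and the receptor-like gene Pdgfrl. Every probe set annotated with 1 gene symbol equal to a listed member was taken, which gave 15 of the 45037 probe sets on the array and covered all 7 genes, of 18193 genes named there. Membership was set by gene name, with earlier results of these data known. RNA came from male FVB/N mice at postnatal day 2 that carried both SMGA/EGFP and SMAA/EYFP, so that EGFP was driven by a promoter of smooth muscle gamma actin and EYFP by one of smooth muscle alpha actin. Bladder cells were dissociated and sorted into EGFP+EYFP- cells (single-positive, 3 arrays) and EGFP+EYFP+ cells (double-positive, 3 arrays). All samples therefore share the EGFP gate, and each reporter reads a transgene promoter, not the cell type itself. The labels assign both populations to the detrusor, the muscle of the bladder wall, and do not say whether the arrays of a group came from different animals. The p-values therefore speak only to the spread among these 6 samples, part or all of which may be technical.

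PDGF ligands are secreted dimers that bring receptor chains together and switch on their tyrosine kinases. PDGF-A and PDGF-B are classical ligands, whereas PDGF-C and PDGF-D carry a CUB domain that a protease must remove before they can bind. The alpha receptor takes PDGF-A, PDGF-B and PDGF-C, and the beta receptor takes mainly PDGF-B and PDGF-D. In many organs epithelium supplies PDGF-A to mesenchyme bearing the alpha receptor, and endothelium supplies PDGF-B to pericytes and vascular smooth muscle bearing the beta receptor. In the bladder wall, the alpha receptor marks interstitial cells that lie between smooth muscle bundles.

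Signal intensities are in arbitrary units, and their median over an array ranged from 147.1 to 199.8. Correlations of log2 signals over probe sets were 0.95 to 0.956 among single-positive arrays and 0.935 to 0.948 among double-positive arrays. Between groups they were 0.921 to 0.942, a range that overlapped the second. The ratio of the 3' to the 5' Actb control signal was 3.23 to 5.97 in the single-positive and 2.78 to 8.02 in the double-positive arrays. This ratio reads RNA integrity together with the 2 rounds of amplification, which weaken probe sets far from the 3' end. The same ratio for Gapdh was 11.8 to 20.6 and 17.2 to 23.9, and double-positive array 3 had the highest of both. Actg2, the gene behind the EGFP reporter, was lower in double-positive cells (log2 difference -2.54), and Acta2, the gene behind EYFP, had -0.07 on its brightest probe set and did not pass. The size of the Acta2 difference and its call rested on the probe set, and its direction on 1 array. It was -2.48 averaged over its probe sets (limma adjusted p = 0.00155), -4.31 on the brightest one whose name marks no shared sequence (adjusted p = 9.958e-05) and 0.06 when double-positive array 3 was omitted. Of 11 smooth muscle markers, 9 fell in double-positive cells, with the intermediate filament protein Synm at -4.54, and 2, Acta2 and Myocd, did not pass. The number of arrays limits the precision.

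Of the 7 member genes, each read on its brightest probe set, Pdgfc rose in double-positive cells and Pdgfa and Pdgfb fell, while Pdgfd, Pdgfra, Pdgfrb and Pdgfrl did not pass. The test was limma's moderated test on log2(signal + 25.042), adjusted by Benjamini-Hochberg over 13464 genes with a threshold of 0.05. All 7 genes were bright enough to be tested, Pdgfb only through its single-positive arrays. Over all genes tested, 6.37% passed in either direction, 1.98% upward and 4.38% downward. For 4 members (Pdgfa, Pdgfb, Pdgfc and Pdgfra) the 3 arrays of one group all lay above or all below the other 3, as was the case for 22.4% of all genes tested. The median log2 difference of the 7 members was -0.24, against 0.02 over all genes tested. Differences are double-positive minus single-positive throughout, and the offset makes those of dim genes smaller. Folds are the log2 differences on a linear scale, not ratios of the mean signals printed beside them.

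**Figure D1:**
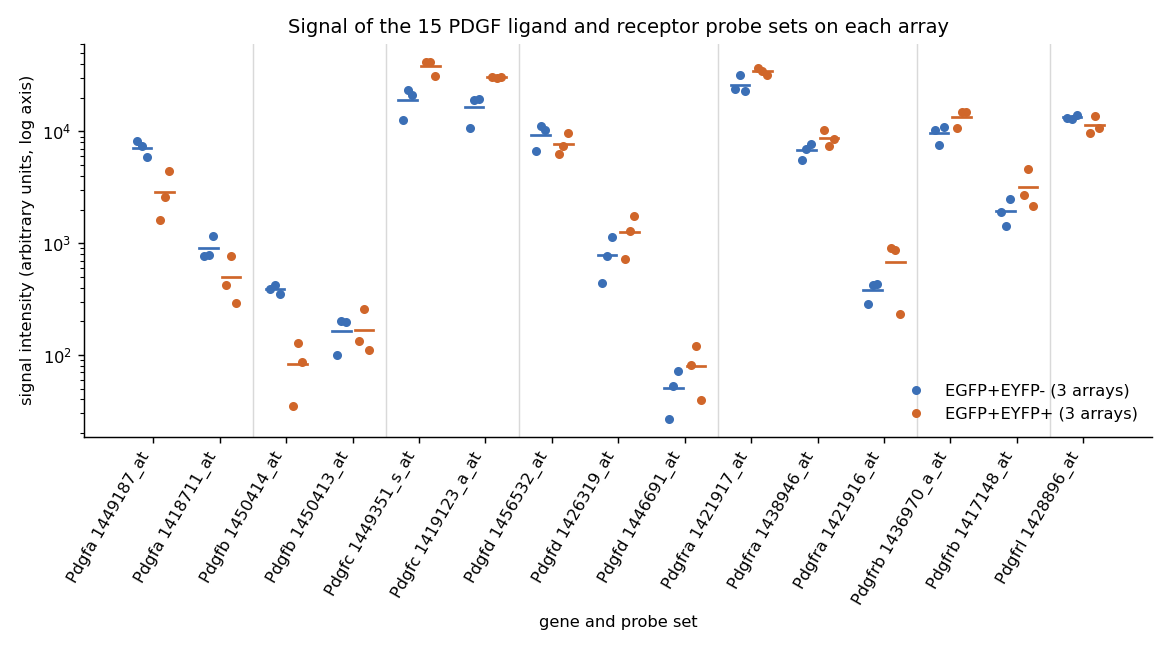
Signal intensity of each of the 15 member probe sets (x axis) on each of the 6 arrays, in arbitrary units on a log axis. Points are arrays and bars are group means of 3 arrays. The double-positive points lie wholly above the single-positive ones on both Pdgfc probe sets and on the brightest of Pdgfra, and wholly below on both of Pdgfa and on the brighter of Pdgfb.

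Pdgfc encodes PDGF-C, a ligand of the alpha receptor. On its brighter probe set, 1449351_s_at, the signal was 12677, 23358 and 21058 in single-positive arrays 1 to 3 and 41908, 41971 and 31213 in double-positive arrays 1 to 3. The lowest double-positive value exceeded the highest single-positive one, and single-positive array 1 stood below the other two of its group. The group means were 19031 ± 5622 and 38364 ± 6193 (SD, n = 3 each), a 2.06-fold rise with a log2 difference of 1.04 (SE 0.23, limma adjusted p = 0.0236).

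The other Pdgfc probe set, 1419123_a_at, gave a like difference. Its signal was 10792, 19161 and 19576 in single-positive arrays and 30613, 30352 and 30880.4 in double-positive arrays. The 3 double-positive values lay close together, at 30615 ± 264 (SD, n = 3), and all were higher. The log2 difference was 0.94 (SE 0.23). The suffixes of both names mark them as matching more than 1 transcript. Leaving out 1 array left the rise at 0.78 to 1.22 on the log2 scale. Among single-positive arrays, omitting array 1 (limma adjusted p = 0.0582) or array 3 (0.0525) ended the call, as did omitting double-positive array 1 (0.0742) or 2 (0.0871) and fitting no variance trend (0.124).

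The bases upstream of the Pdgfc start are shown with those of Pdgfd, the other CUB domain ligand, because only one of this pair passed the test and both starts have an entry in the RefSeq promoter table (build GRCm38.p6). Both are given 5′ to 3′ on the plus strand and end before the RefSeq gene begins, at chr3:81036166-81036415 for Pdgfc and chr9:6168236-6168362 for Pdgfd. Capitals mark a CArG box, the motif bound by serum response factor, in Pdgfc and a TATAAA match in Pdgfd.
Pdgfc: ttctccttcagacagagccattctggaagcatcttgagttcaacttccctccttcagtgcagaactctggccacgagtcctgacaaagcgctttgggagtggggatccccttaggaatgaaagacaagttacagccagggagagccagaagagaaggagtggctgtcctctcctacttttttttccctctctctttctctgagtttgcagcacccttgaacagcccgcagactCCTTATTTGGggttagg
Pdgfd: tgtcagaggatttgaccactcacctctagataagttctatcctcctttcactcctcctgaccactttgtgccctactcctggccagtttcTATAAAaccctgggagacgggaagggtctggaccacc

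A set of 6 motifs was searched on both strands of windows from 250 bases before to 50 after a start. They were the GC box GGGCGG, the TATA box TATAAA, the GLI site GACCACCCA, the EGR1 site GCGTGGGCG, the AP-1 site TGANTCA and the CArG box, and no 2 matches of different motifs overlapped in the sequences shown. The table held windows for 4 members. The single Pdgfc match was the CArG box, which 1.63% of all 32851 windows held. The single Pdgfd match was the TATA box, present in 13.6% of windows. Both Pdgfa windows held a GC box, present in 35.7%, and the Pdgfra window held none of the motifs. These matches describe letters in the windows.

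Pdgfd encodes PDGF-D, a ligand of the beta receptor, and its 3 probe sets did not share a direction. On the brightest, 1456532_at, the signal was 6734, 11140 and 10212 in single-positive and 6318, 7351 and 9726 in double-positive arrays. The groups overlapped, and the log2 difference was -0.25 (95% interval -0.81 to 0.31, limma adjusted p = 0.702). On 1426319_at the values were 442, 775 and 1144 against 718, 1283 and 1766, which also overlapped, with a log2 difference of 0.67 (SE 0.45). The third, 1446691_at, was dim (26.9 to 119.7 over all arrays) and was the 1 member probe set under the level required for testing genes. Averaged over its probe sets, Pdgfd had a log2 difference of 0.29, so its direction turned with the choice of probe set.

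The difference of Pdgfc from Pdgfd was read within arrays, as was that of 2 further pairs. The log2 ratio of the Pdgfc to the Pdgfd signal was 0.91, 1.07 and 1.04 in single-positive and 2.73, 2.51 and 1.68 in double-positive arrays, a shift of 1.30. All double-positive ratios were above all single-positive ones, with an exact two-sided permutation p of 0.1, the smallest that 3 against 3 arrays allow, and an adjusted p of 0.3 over the 3 pairs. Averaged over probe sets the shift was 0.71.

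Pdgfa encodes PDGF-A, the ligand of the alpha receptor that epithelia often make. On its brighter probe set, 1449187_at, the signal was 8206, 7348 and 5865 in single-positive arrays and 1601, 2566 and 4386 in double-positive arrays. The groups did not overlap, and double-positive array 3 lay nearest to the single-positive range. The group means were 7139.9 ± 1184 and 2851 ± 1414 (SD, n = 3 each), a 2.68-fold fall with a log2 difference of -1.42 (SE 0.35, limma adjusted p = 0.0363).

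The dimmer Pdgfa probe set, 1418711_at, gave 776, 780.0 and 1156 in single-positive and 426, 763 and 293 in double-positive arrays. These groups did not overlap either, but the closest values, 776 and 763, nearly touched. The log2 difference was -0.92 (SE 0.42). With 1 array left out the Pdgfa difference was -1.79 to -1.07. It passed when double-positive array 3 was omitted (limma adjusted p = 0.00551). Omitting any other array ended the call, with adjusted p of 0.128, 0.133 and 0.0822 for single-positive arrays 1 to 3 and 0.0938 and 0.0949 for double-positive arrays 1 and 2. It also did not pass after median centring (0.0924), with no filter on dim genes (0.0567) or with no variance trend (0.0974), all by limma.

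Markers of urothelium, the epithelium of the bladder, were lower in double-positive cells as well. Of 16 markers, all tested, 9 fell and 7 did not pass, with Perp, a desmosomal protein, at a log2 difference of -3.60 and the keratin Krt15 at -3.36. Krt15 was tested through the group where it was high, since its mean double-positive log2 level, 5.29, lay under the level required for testing (6.82). Offsets at the 10th and 30th percentile of all signals gave it -4.04 and -2.69. The 9 became 5 when single-positive array 2 or 3 was omitted. The summed signal of the list ranged from 29282 to 48042 in single-positive and from 5645 to 9990.4 in double-positive arrays. No marker of any list was at 0, and the lowest signal was 1.76. The part of these cells in the Pdgfa result was not tested, and fewer cells of a type and less RNA per cell cannot be told apart in bulk samples.

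Pdgfb encodes PDGF-B, which binds both receptors and is a known signal of endothelium to mural cells. On its brighter probe set, 1450414_at, the signal was 390.0, 420.0 and 353 in single-positive arrays and 35.1, 127 and 86.2 in double-positive arrays. The single-positive values were close to each other and all well above the double-positive ones, each of which lay below its array's median. The group means were 387.7 ± 33.5 and 82.8 ± 46.2 (SD, n = 3 each), a 4.09-fold fall with a log2 difference of -2.03 (SE 0.45, limma adjusted p = 0.0224).

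The mean log2 level in double-positive arrays, 6.65, was under the level required for testing (6.82), so Pdgfb was tested through the group where it was high. With no filter on dim genes it still passed (limma adjusted p = 0.0455), and offsets at the 10th and 30th percentile of all signals gave -2.25 and -1.76.

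The second Pdgfb probe set, 1450413_at, did not show this fall. Its signal was 99.2, 201 and 195 in single-positive and 133, 259 and 110 in double-positive arrays. The groups overlapped fully, and the log2 difference was -0.01 (SE 0.51, 95% interval -1.18 to 1.16). The platform annotation gives both probe sets the same GenBank record, and the fall of Pdgfb rests on 1 of the 2. Averaged over both, the log2 difference was -1.02 and did not pass (limma adjusted p = 0.189). When single-positive array 1 or 2 was omitted, the dim probe set became the brighter one and gave -0.29 (limma adjusted p = 0.881) and 0.14 (adjusted p = 0.972). With the first probe set kept, the difference stayed between -2.33 and -1.66 without any 1 array, and omitting any single-positive array (limma adjusted p = 0.0726 to 0.0961) ended the call, and so did omitting double-positive array 1 (0.0730).

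Of 12 endothelial markers 4 fell and 8 did not pass, and 2 fell when single-positive array 2 or 3 was omitted. Cdh5, vascular endothelial cadherin, had a log2 difference of -2.41 (-1.34 averaged over probe sets) and Cldn5, a tight junction protein, one of -2.28. The summed signal of the list was 24626 to 29371 in single-positive and 11320.2 to 14108 in double-positive arrays. All 12 leukocyte markers fell, with Mrc1, the macrophage mannose receptor, at -2.96 and the lysosomal protein Laptm5 at -3.07, and their summed signal was 91979.8 to 130384 against 12501 to 20228. Laptm5 had -1.50 averaged over probe sets and -0.52 on its brightest unshared one, where it did not pass (limma adjusted p = 0.569). The part of either cell type in the Pdgfb result was not tested. The within-array log2 ratio of Pdgfa to Pdgfb was 4.31, 4.05 and 3.96 in single-positive and 4.76, 4.09 and 5.31 in double-positive arrays. These overlapped, and the shift of 0.61 had an exact two-sided permutation p of 0.2 (adjusted p = 0.3). The shift was -1.02 and -1.53 when single-positive array 1 or 2 was omitted and the dimmer Pdgfb probe set took over, and -0.15 averaged over probe sets.

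**Figure D2:**
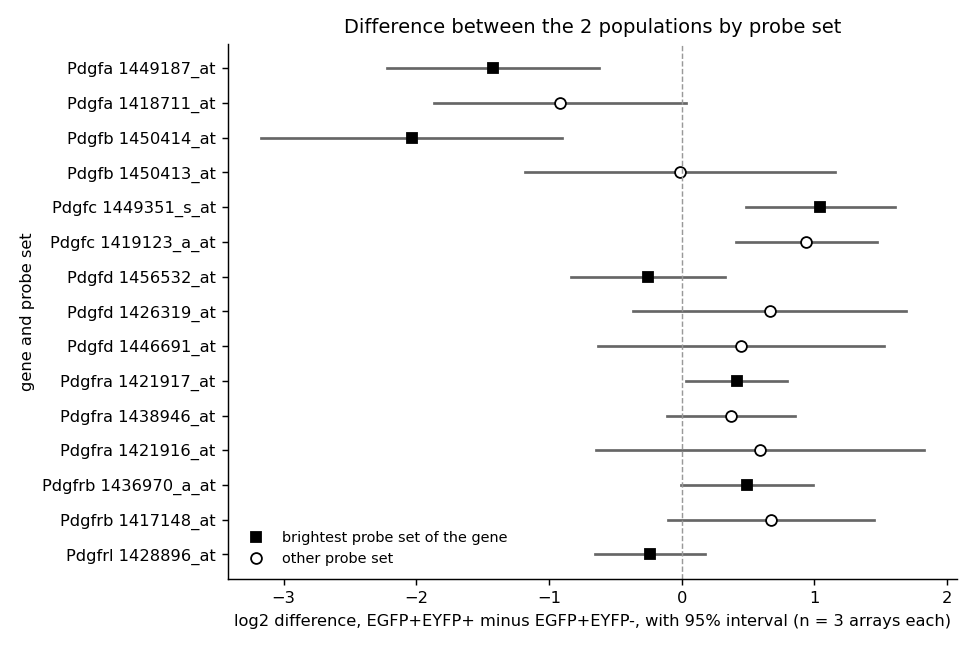
Log2 difference of each member probe set, double-positive minus single-positive (x axis), with its 95% interval from limma over 3 arrays per group. The intervals are from the fit over all probe sets. Filled squares are the brightest probe set of each gene. The intervals of both Pdgfc probe sets lie above 0, and the Pdgfb probe sets differ, at -2.03 and -0.01.

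Pdgfra encodes the alpha receptor. On its brightest probe set, 1421917_at, the signal was 23810.1, 31712 and 23090 in single-positive and 36628, 34913 and 32311 in double-positive arrays. All double-positive values were higher, although double-positive array 3 exceeded single-positive array 2 by little. The means of 26204 ± 4784 and 34617 ± 2174 (SD, n = 3 each) gave a log2 difference of 0.41 (95% interval 0.06 to 0.77, limma adjusted p = 0.196).

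The other Pdgfra probe sets had differences of the same sign. On 1438946_at the signal was 5583, 6979 and 7785 in single-positive and 10275, 7408 and 8633 in double-positive arrays, where the groups overlapped, with a log2 difference of 0.37 (SE 0.21). On 1421916_at it was 286, 420 and 435 against 911, 875 and 235. There double-positive array 3, the array with the highest Actb 3' to 5' ratio, was the lowest of all 6. The part of RNA integrity or amplification in this was not tested. In all 23 alternatives run, those with an array left out included, the Pdgfra difference was positive, between 0.33 and 0.56, and did not pass. Not all of these could change its sign. Other filters, no variance trend and the replicate block leave a difference as it is. Holding the probe sets gave the same range with an array left out, 0.33 to 0.56.

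Pdgfrb encodes the beta receptor, a marker of pericytes and other mural cells. On its brighter probe set, 1436970_a_at, the signal was 10406, 7611 and 10963 in single-positive and 10748, 15057 and 14947 in double-positive arrays. Double-positive array 1 fell inside the single-positive range. The means of 9659.7 ± 1796 and 13584 ± 2457 (SD, n = 3 each) gave a log2 difference of 0.49 (95% interval 0.01 to 0.98, limma adjusted p = 0.275). In the fit over all probe sets the interval was -0.01 to 0.99, which includes 0. On 1417148_at the signal was 1917, 1417 and 2461 against 2707, 4652 and 2174, again with overlap, and the log2 difference was 0.67 (SE 0.34).

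Of 11 other pericyte and mural markers tested, 9 had lower means in double-positive cells. The cell adhesion molecule Mcam (log2 difference -2.20) and the G protein regulator Rgs5 (-1.02) fell, none rose and 9 did not pass, and Vtn was too dim to be tested. The Rgs5 call held when double-positive array 3 was omitted and ended when any other array was (limma adjusted p = 0.0887 to 0.165). It also ended after median centring (0.150), with no filter on dim genes (0.0676), averaged over probe sets (0.178) and with no variance trend (0.149). The mitochondrial protein gene Ndufa4l2, picked out after its value was seen, had a log2 difference of 2.05 (limma adjusted p = 0.0970), which passed when double-positive array 3 was omitted (adjusted p = 0.0277). The summed signal of the list was 48806.5 to 53202 in single-positive and 16989 to 33350.0 in double-positive arrays. Bright genes weigh most in this sum, and Rgs5 alone had a mean signal of 23492.5 in single-positive and 12088 in double-positive arrays. None of the 10 fibroblast markers passed in limma, 2 were higher at an unadjusted p under 0.05, and their median log2 difference was 0.09. Thy1, a surface protein of fibroblasts, had the smallest p (log2 difference 1.12, limma adjusted p = 0.0665) and passed when single-positive array 1 (adjusted p = 0.0382) or double-positive array 3 (0.0449) was omitted. The collagen gene Col1a1 had 0.39 (adjusted p = 0.137). Both receptors had higher double-positive means but did not pass, and the median log2 difference of the mural marker list was -0.63. The part of mural cells or fibroblasts in the receptor values was not tested.

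The shifts of both receptors were compared within arrays. The within-array log2 ratio of Pdgfra to Pdgfrb was 1.19, 2.06 and 1.07 in single-positive and 1.77, 1.21 and 1.11 in double-positive arrays. The shift was -0.08 with an exact two-sided permutation p of 0.9 (adjusted p = 0.9), and it turned positive when single-positive array 2 (0.23) or double-positive array 3 (0.05) was omitted. Pdgfrl, which encodes a secreted protein resembling the receptor's extracellular part, gave 13266, 12816 and 13996 in single-positive and 9772, 13745 and 10747 in double-positive arrays. Double-positive array 2 lay inside the single-positive range, and the log2 difference was -0.24 (95% interval -0.65 to 0.17, limma adjusted p = 0.598).

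When each probe set was tested by itself over all 45037 probe sets, none of the 15 member probe sets passed in limma, while 1.54% of all probe sets did. At an unadjusted p under 0.05 there were 5, namely both of Pdgfc and the brightest of Pdgfa, Pdgfb and Pdgfra. The smallest adjusted p was 0.0979, for the brighter Pdgfc probe set. Groups without overlap were seen for 6 of the 15, 3 higher and 3 lower, and for 15.9% of all probe sets. When probe sets under the 60th percentile of brightness were left out beforehand, 3 member probe sets passed, both of Pdgfc and the brighter of Pdgfa. For that filter, too, the share of all probe sets that passed is not given here. The calls of Pdgfa, Pdgfb and Pdgfc thus held in the fit over genes and not in the fit over all probe sets.

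**Figure D3:**
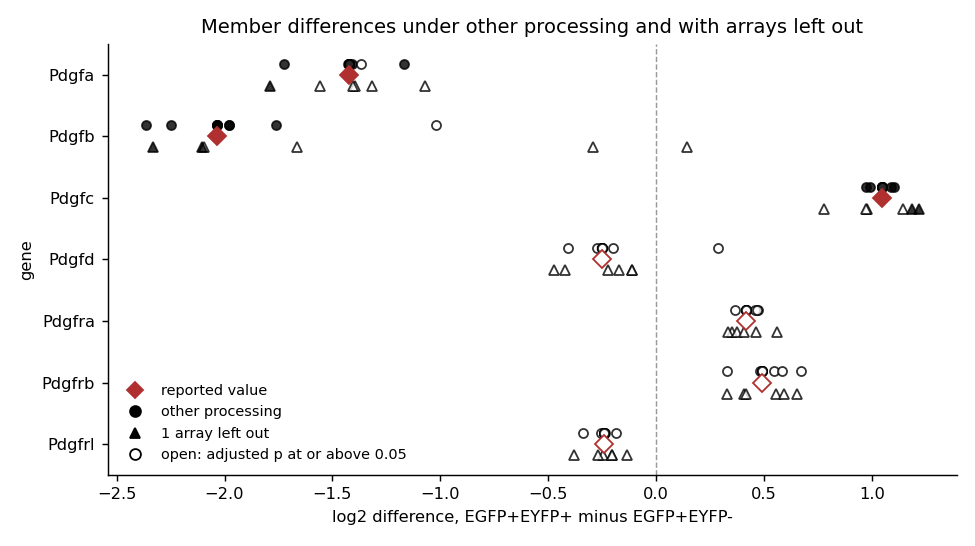
Log2 difference of each member gene (x axis), double-positive minus single-positive, as reported (diamonds), under other processing (circles) and with 1 array left out (triangles). Filled symbols have an adjusted p under 0.05. Pdgfc stays between 0.78 and 1.22, and the Pdgfb triangles at -0.29 and 0.14 come from its dimmer probe set.

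Genes that act with the PDGF system were read from 5 lists of 64 genes, of which 59 were tested. None rose, 6 fell and 53 did not pass, while 1.98% of all genes tested rose and 4.38% fell. Among 9 genes of ligand processing and binding, St14, the protease matriptase, fell with a log2 difference of -1.74 (SE 0.41, limma adjusted p = 0.0317). Its signal was 247 ± 56.2 in single-positive and 56.4 ± 17.4 in double-positive arrays (SD, n = 3 each), the second of which lay under the filter's mean signal, where the offset sets much of the fold. Omitting any single-positive array ended the call, and so did omitting double-positive array 1 or 3. Plau, the urokinase that can release PDGF-D, is described after its values were seen and had 858 ± 1282 in single-positive and 3117 ± 2068 in double-positive arrays (SD, n = 3 each), a log2 difference of 2.85 that did not pass (SE 1.06, limma adjusted p = 0.179). It passed when single-positive array 3 was omitted (adjusted p = 0.0147) and when averaged over its probe sets (0.0300). Plat, the plasminogen activator that can release PDGF-C, and the binding proteins Nrp1, Lrp1 and Sparc did not pass.

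Adaptors and effectors carry the signal from the receptors into the cell, and attenuators limit it. None of 21 adaptors and effectors passed in limma (0 higher and 1 lower at an unadjusted p under 0.05), and their median log2 difference was -0.07. The 1 lower was Vav3, picked out after its values were seen, with -2.05 (limma adjusted p = 0.220). Vav3 passed with array weights (-3.16, limma adjusted p = 0.0294). Among 12 attenuators, only Sla, an adaptor of blood cells, fell, with a log2 difference of -2.70 (SE 0.58, limma adjusted p = 0.0192), from 660 ± 434 to 79.8 ± 55.5 (SD, n = 3 each). The double-positive level was again below that of the filter. The call ended when single-positive array 1 or 3, or else double-positive array 2, was omitted, and averaged over its probe sets Sla had -1.18 (limma adjusted p = 0.114). At an unadjusted p under 0.05 in limma, 3 attenuators were higher and 1 lower, and the list had a median log2 difference of 0.09. Ptprk, picked out after its values were seen, had 0.76 and did not pass (limma adjusted p = 0.0989). With array weights Ptprk passed (0.77, limma adjusted p = 0.0479). Socs3, an inhibitor of cytokine signalling picked out after its values were seen, had 0.33 and did not pass (limma adjusted p = 0.214). It passed when averaged over probe sets (0.77, adjusted p = 0.0143) and on its brightest unshared one (1.31, adjusted p = 0.00546).

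Of 12 early genes that PDGF can induce, the chemokines Ccl2 and Ccl7 fell and 10 did not pass. Ccl2 fell from 2303 ± 509 to 414 ± 77.0 and Ccl7 from 2380.2 ± 770 to 342 ± 17.4 (SD, n = 3 each), with log2 differences of -2.40 and -2.67. Junb, also picked out after its value was seen, had 1.46 and passed when double-positive array 3 was omitted (limma adjusted p = 0.0288). Cxcl1, picked out in the same way, had -0.40 and did not pass (limma adjusted p = 0.153). It passed after quantile normalization (-0.47, adjusted p = 0.0258), averaged over probe sets (-0.66, 0.0474) and on its brightest unshared one (-0.80, 0.0380). Fos, Jun, Egr1 and Myc did not pass, and the median of the list was 0.15. These genes also respond to tissue dissociation, which all samples underwent.

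The class III receptor tyrosine kinases related to the PDGF receptors were read as well, and 2 of them fell. Csf1r, the macrophage growth factor receptor, fell from 29697 ± 4181 to 5071 ± 2913 (log2 difference -2.68), and Kit, the stem cell factor receptor of mast cells and interstitial cells, from 998 ± 226 to 211 ± 177 (-2.38, SE 0.54, limma adjusted p = 0.0258; SD, n = 3 each). Csf1r is also 1 of the leukocyte markers. Of the ligands, Kitl, Csf1 and Il34 did not pass, and Flt3 and Flt3l were not tested. The Kit call ended when any single-positive array was omitted (limma adjusted p = 0.0549 to 0.111), when double-positive array 1 (0.0606) or 2 (0.0748) was, with no filter on dim genes (0.0529) and with no variance trend (0.0536). The Csf1r call held in every alternative run.

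**Figure D4:**
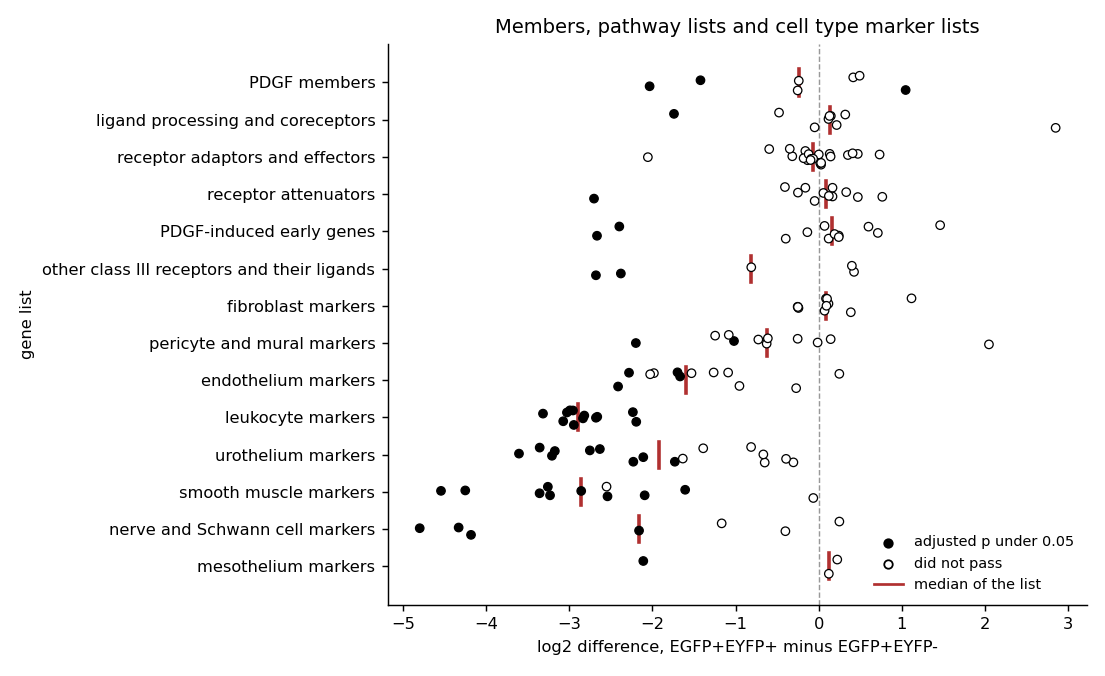
Log2 difference, double-positive minus single-positive (x axis), of every tested gene of the member, pathway and marker lists, 1 point per gene, with the list median as a bar. Filled points passed an adjusted p of 0.05. All 12 leukocyte markers lie to the left, and the 21 adaptors and effectors have none that passed.

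The genes most like each member were found by the root mean square difference of log2 signals, each gene centred on its mean, over the 6 arrays. For Pdgfa the nearest were Cdc42ep3 (0.157), Pwwp3b (0.185) and Asic2 (0.185). Nearest to Pdgfb were Ramp1 (0.12), Gpihbp1 (0.19) and Cfp (0.19), and nearest to Pdgfc were Mamdc4 (0.13), Spats2l (0.13) and the syndecan Sdc2 (0.14). Smaller distances were seen for members with little difference between groups, such as Nsmf (0.04) and Col13a1 (0.05) for Pdgfrb and Micos13 (0.07) for Pdgfra. The nearest gene was Bmp2k (0.07) for Pdgfd and Lmtk2 (0.05) for Pdgfrl. These are likenesses over 6 arrays in 2 groups.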

How the data were processed

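The deposited table holds linear signal intensity per probe set, which the authors made with GCOS, the Affymetrix operating software, per the submitters' processing notes; the sources used here give neither algorithm nor version. With 2% trimmed from both ends, every one of the 6 arrays had a mean of 1500.01. Arrays had therefore been scaled alike, which hides any difference in total RNA content. RNA was amplified in 2 rounds per the labels' protocols, which weakens probe sets far from the 3' end. No detection calls were used.

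Values became log2(signal + 25.042), an offset equal to the 20th percentile of all signals. Arrays were not rescaled (medians within 1.36-fold). Names came from the platform annotation (34945 of 45037 probe sets with 1 symbol, 932 with several, 9160 with none). A gene took its brightest probe set and was tested if its mean passed the 40th percentile of probe set means (6.82), which kept 13464 of 18193 genes. limma 3.58.1 in R 4.3.3 (eBayes with trend) compared 3 with 3 arrays. Tested on simulated data for these genes, it recovered 8% of log2 changes of 1 and 48% of 2, with 3 of 59 calls false.

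The members and lists were chosen with earlier results of these data known. Named genes were all members, pathway genes past the threshold (or the 5 of smallest p) and the 2 markers of smallest p per list. Both reporter genes and the 3 genes most like each member were named as well. Plau, Junb, Socs3, Ndufa4l2, Cxcl1, Ptprk and Vav3 were added after their values were seen. Other genes are named without values, as ones that did not pass. Of the marker lists not described in the report, 4 of 7 nerve and Schwann cell markers fell (Mbp -4.80 and Erbb3 -4.33, or -2.76 and -1.83 averaged over probe sets), as did 1 of 3 mesothelium markers (Krt19 -2.11; Wt1 had 0.22), and none rose. Krt19 is also 1 of the 9 urothelium markers that fell, and its call ended when single-positive array 2 (limma adjusted p = 0.0598) or 3 (0.101) was omitted. Any 2 arrays shared at most 13 identical values. Alternatives were other offsets, normalizations, filters, probe set choices and variance models, the replicate number as a block, and each array left out.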

Additional observations from a re-analysis of the deposited data

How the results depend on the processing

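Directions of Pdgfa, Pdgfc, Pdgfra, Pdgfrb and Pdgfrl were kept in all alternatives run. Other filters, no variance trend and the replicate block could not change them, because these settings leave the size of a difference as it is. Calls were less stable. Of the 3 member genes called, 1 remained without a variance trend (Pdgfb), and 0 to 3 were called with an array left out, the same range with probe sets held. Pdgfa missed the threshold after median centring (-1.37, adjusted p = 0.0924), with no filter on dim genes (-1.42, 0.0567) and without a variance trend (-1.42, 0.0974). Pdgfc missed it without a variance trend (1.04, adjusted p = 0.124), and Pdgfb when averaged over probe sets (-1.02, 0.189). With an array left out the log2 differences ranged from -1.79 to -1.07 for Pdgfa, -2.33 to 0.14 for Pdgfb and 0.78 to 1.22 for Pdgfc. With probe sets held, an alternative chosen after seeing the data, they ranged from -1.79 to -1.07, -2.33 to -1.66 and 0.78 to 1.22. Pdgfb was not tested under the stricter filter. Pdgfd turned to 0.29 when averaged over probe sets.

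Member probe sets called numbered 0 over all probe sets, 1 with those under the 40th percentile left out (Pdgfb) and 3 with those under the 60th, and 0 to 1 with an array left out. The shares of all probe sets called in these alternatives are not given here. The dimmer Pdgfb probe set had 0.038 after quantile normalization and 0.046 after median centring, and -0.33 to 0.21 with an array left out. The shift of the Pdgfa to Pdgfb ratio was -0.15 averaged over probe sets and -1.53 to 0.93 with an array left out, that of Pdgfc to Pdgfd was 0.71 averaged over probe sets, and that of Pdgfra to Pdgfrb was -0.28 to 0.23 with an array left out.

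Among other genes named, Acta2 ranged from -0.20 to 0.063 and Wt1 from -0.22 to 1.05 with an array left out, and Wt1 had -0.57 with array weights. Mbp, called as reported, had -0.45 to -0.13 and did not pass when any single-positive array was omitted. It had -5.09 to -4.63 when a double-positive array was omitted. The brightest probe set was chosen anew in each of these runs, so the Mbp values can come from different ones. St14 missed the threshold with the replicate block (adjusted p = 0.0565), and Ndufa4l2 passed it (0.0175).

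Over all genes, 857 were called (267 higher, 590 lower), 1345 with array weights (435 and 910), and 466 to 1084 with an array left out (160 to 348 higher, 303 to 736 lower). The replicate block gave 1014 and kept the calls of Pdgfa, Pdgfb and Pdgfc. Deviations of same-numbered arrays correlated at 0.19, 0.05 and 0.02, and those of differently numbered arrays at -0.125 to 0.093. With 3 arrays a group these values cannot decide whether the numbers mark pairs, and the main fit used none. With 3 arrays a group, simulated log2 changes of 1 and 2 were often missed, with 8% and 48% recovered. Signals below the array median, such as Pdgfb in double-positive cells, rest on the offset.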
